A study of Mus musculus with 24 samples.

Results

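The genes described here are the subunits of oxidative phosphorylation, the chain of enzymes in the mitochondrial inner membrane that burns reduced cofactors with oxygen and makes ATP. They were chosen by name and not by any measured value, as the protein-coding genes whose symbol begins with Nduf, Uqcr, Cox4 to Cox8, Atp5, mt-Nd, mt-Co, mt-Atp or mt-Cytb, together with Sdha, Sdhb, Sdhc, Sdhd and Cyc1. The rule found 110 genes among the 55487 in the count table, 97 of them in the nuclear genome and 13 in the mitochondrial genome. Complex I held 37 nuclear and 7 mitochondrial members, complex II 4 nuclear members, complex III 9 and 1, complex IV 21 and 3, and complex V 18 and 2. Another 8 members, the Ndufaf genes, are assembly factors of complex I and not subunits.

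Bulk RNA-seq was made from 4 sorted cell populations of mouse small intestinal lamina propria, labelled ILC1, NKp46, CCR6 and DN. ILC1 are group 1 innate lymphoid cells, NKp46 and CCR6 are surface receptors, and the labels do not spell out DN. The 12 DKO libraries came from Vav1-Cre mice carrying floxed alleles of both Nr1d1 and Nr1d2, and the 12 WT libraries from littermates with the floxed alleles and no Cre. All mice were 8 to 12 weeks old, and each of the 8 groups had 3 libraries. Vav1-Cre acts throughout the blood-forming lineage, so the deletion was not limited to the sorted cells. Whether the 3 libraries of a group stand for 3 different mice is not in the labels, and the p-values therefore measure the spread between these libraries. Nr1d1 and Nr1d2 encode the heme-binding nuclear receptors REV-ERBα and REV-ERBβ, which repress transcription in the circadian clock.

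Complexes I and II take electrons from NADH and succinate, complex III passes them on to cytochrome c, and complex IV gives them to oxygen. Complexes I, III and IV pump protons, and complex V, the ATP synthase, uses the returning protons to make ATP. The mitochondrial genome encodes a core set of subunits in complexes I, III, IV and V, all others and the whole of complex II are nuclear, and in lymphocytes the balance between this machinery and glycolysis is known to shift with activation.

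Counts are given as counts per 1000000 after TMM scaling (CPM), and genes were compared with edgeR's quasi-likelihood test over all 24 libraries with Benjamini-Hochberg adjustment over 21286 tested genes. A gene was called at an adjusted p below 0.05, and differences are log2 fold changes with their standard error (SE). Library totals ran from 12763228 to 84395154 counts. Nr1d1 was higher in DKO than in WT libraries in every population, by 2.34 (SE 0.21), 0.82 (SE 0.20), 1.39 (SE 0.21) and 1.96 (SE 0.21) for ILC1, NKp46, CCR6 and DN, with edgeR adjusted p of 8.8e-07, 0.022, 0.00014 and 2.4e-06. Nr1d2 was higher by 1.99, 1.01, 1.55 and 1.55, with an edgeR adjusted p of 0.13 in NKp46 and of at most 0.018 in the other populations. The deleted exons are not given in the labels, so gene-level counts do not check the genotype, and DKO is used as the label of the libraries. WT ILC1 library 2 stood apart, with the lowest total, 84.1% of counts in protein-coding genes against 91.6% or more in the other libraries, and 9.39% of counts in ribosomal RNA genes. Several values are therefore also given without it. All 9 markers of innate lymphoid cells were detected in all 8 groups, summing to between 4752 and 10473 CPM. In bulk samples fewer cells of one type and less RNA per cell cannot be told apart.

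Nearly the whole machinery was expressed in every population. Of the 110 members, 105 passed the filter on low counts. The other 5 were Cox8b with 1 count in all libraries, Cox8c with 3, Cox7b2 with 7, Ndufa4l2 with 78 and a second Atp5o entry (ENSMUSG00000116933) with 0. Per kilobase of exon, the highest members were the mitochondrial mt-Cytb at 1737 CPM, mt-Co1 at 1611 CPM and mt-Nd1 at 1490 CPM, means over the 24 libraries, of which mt-Co1 shares part of its sequence with a nuclear copy described further on. Among nuclear members Cox6a1, the common form of a small complex IV subunit, had the highest level per kilobase, at 555 CPM, followed by Cox8a at 370 CPM and Cox4i1 at 315 CPM. In the other complexes the highest per kilobase were Ndufa1 at 268 CPM, Ndufa2 at 234 CPM and Ndufa13 at 202 CPM in complex I, and Sdhd at 147 CPM, Sdha at 117 CPM and Sdhb at 89.2 CPM in complex II. Uqcr10 at 258 CPM, Uqcrh at 196 CPM and Uqcr11 at 184 CPM led complex III per kilobase, and Atp5a1 at 274 CPM, Atp5h at 218 CPM and Atp5c1 at 213 CPM led complex V. These rankings divide by the union of all annotated exons of a gene and so depend on the annotation. Cox6c had more counts than Cox6a1, 413286 against 398765, but a longer union of exons, 3567 against 702 bases. The members varied little between libraries of a group. Their median replicate coefficient of variation was 9.93% over the 97 members above 10 CPM, against 13.7% over all 8557 tested genes above that level.

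The subunits as a whole differed little between DKO and WT libraries. In ILC1, NKp46 and DN no member passed the test, while 14, 11 and 11 of 105 had an unadjusted p below 0.05. Counts at unadjusted p, here and below, have no share of all genes beside them and are not read as an excess. Of all genes tested, 1.06% were called in ILC1, 4.16% in NKp46 and 2.83% in DN. In CCR6 2 members were called, both higher in DKO, where 3.97% of all genes were called and 1.93% were called higher. DESeq2 called 2, 3, 3 and 1 members in ILC1, NKp46, CCR6 and DN. Shares over all genes, here and below, are those of the edgeR test, and none is given beside the DESeq2 counts. Over the tested members the median log2 fold change for ILC1, NKp46, CCR6 and DN was 0.03, 0.11, 0.11 and 0.00, against 0.00, -0.02, -0.02 and -0.04 over all genes tested. Differences were small for nearly every member, with an absolute log2 fold change below 0.5 for 97, 99, 98 and 99 of the 105 in those populations. In the same order 59, 83, 81 and 53 members were above 0. All 3 DKO libraries lay above all 3 WT libraries for 7 members in ILC1, 16 in NKp46, 11 for CCR6 and 17 for DN, against 6.53%, 9.76%, 11.5% and 11.2% of all genes. The reverse held for 0, 3, 3 and 11 members, against 4.26%, 11.7%, 13.3% and 12.8% of all genes. The median SE of a member's fold change within one population was about 0.15 on the log2 scale, and larger differences such as 0.79 for Ndufaf4 and 0.56 for Ndufs1 in DN did not pass the test. Other cell types' markers moved with genotype in some populations, and their part in the members' values was not tested. Markers of stromal and endothelial cells summed to between 126 and 144 CPM in WT NKp46 and between 237 and 262 CPM in DKO NKp46, with Pdgfra at 0 in the first group and Kdr in the second. The same list summed to between 217 and 260 CPM in WT CCR6 and between 315 and 397 CPM in DKO CCR6, and to between 160 and 185 CPM in WT DN and between 293 and 369 CPM in DKO DN, with Cdh5 at 0 in both of these DKO groups and Pdgfra in WT DN. T cell markers summed to between 3166 and 3335 CPM in WT DN and between 1398 and 1655 CPM in DKO DN, with none at 0. Myeloid markers summed to between 280 and 752 CPM in WT ILC1 and between 138 and 154 CPM in DKO ILC1, again with none at 0. In NKp46 the myeloid markers went from between 118 and 158 CPM in WT to between 63.3 and 87.1 CPM in DKO. B and plasma cell markers summed to between 580 and 786 CPM in WT ILC1, with Pax5 and Mzb1 at 0, and between 886 and 1671 CPM in DKO ILC1. Epithelial markers summed to between 12.1 and 15.1 CPM in WT CCR6 and between 26.4 and 43.1 CPM in DKO CCR6, with Apoa1 at 0 in the latter, and to between 23.8 and 28.7 CPM in WT DN and between 46.6 and 64.0 CPM in DKO DN. Red cell markers in DN were between 5.21 and 5.57 CPM in WT and between 0.661 and 0.979 CPM in DKO, with Hbb-bt at 0 in the latter. The innate lymphoid markers themselves summed to between 7655 and 8470 CPM in WT NKp46 and 4752 and 4915 CPM in DKO NKp46, to between 9613 and 10473 CPM in WT CCR6 and 5888 and 6387 CPM in DKO CCR6, and to between 7396 and 8559 CPM in WT DN and 4947 and 5611 CPM in DKO DN, while ILC1 ranges overlapped. Of these 9 markers 6 fell in DKO in the comparison averaged over the populations.

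**Figure D1:**
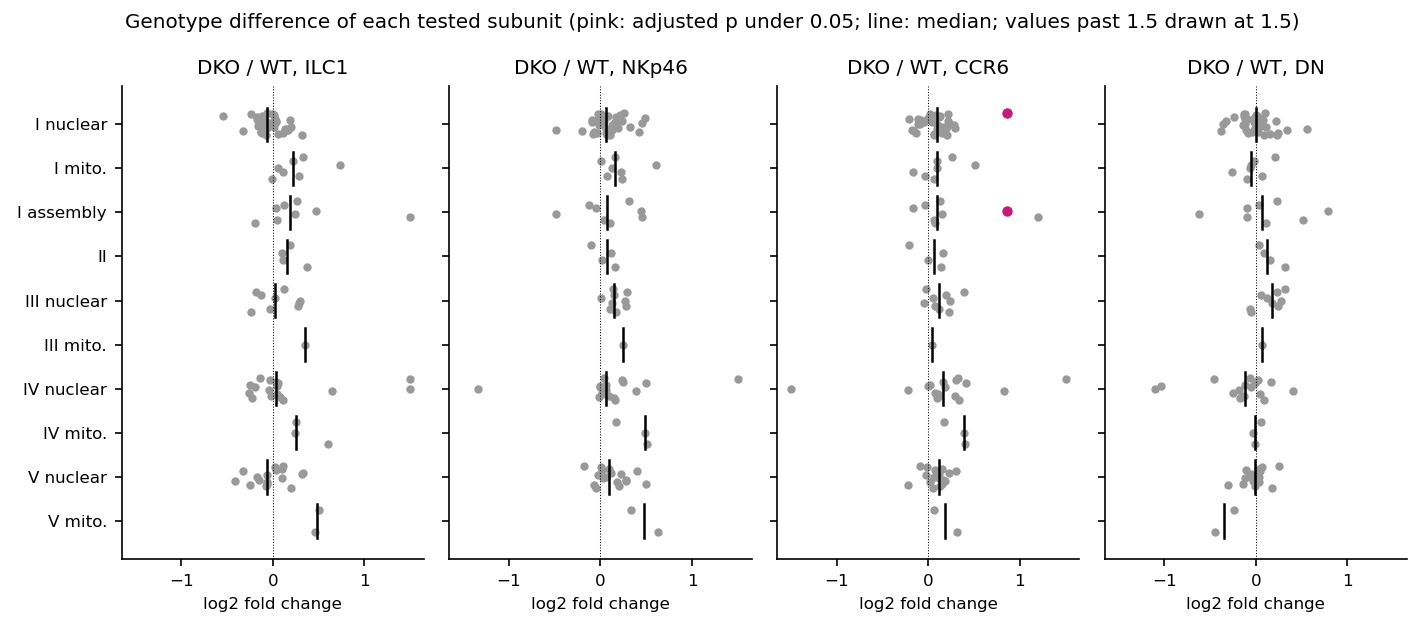
Log2 fold change of DKO against WT for each of the 105 tested members (x axis), in 1 panel per population and grouped on the y axis by complex and genome. Each point is 1 gene, pink where edgeR's adjusted p is below 0.05, the black line is the median of the group, and values past 1.5 are drawn at 1.5; nearly all points lie within 0.5 of 0, and the only pink points are Ndufa1 and Ndufaf4 in CCR6.

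Averaging the 4 genotype differences with equal weight gave 9 called members, 8 higher and 1 lower in DKO, or 8.57% of the 105. Over all genes 10.8% were called in the same comparison, 4.81% higher and 5.99% lower, so the share of called members was near that background. The 8 higher members were Ndufaf4, Uqcrc1, mt-Co3, Ndufa1, mt-Co2, Cox4i2, mt-Nd3 and mt-Nd1, and the lower member was Ndufs4. An unadjusted p below 0.05 was reached by 22 members. The median over the members was 0.06, against -0.02 over all genes, and 75 of 105 members were above 0, beside 10241 of 21286 genes tested. The count was 14 without WT ILC1 library 2, when all 9 were still called and 2839 of all 22740 genes then tested were called. It was 5 without any 1 of DKO ILC1 library 1, DKO NKp46 library 2, WT CCR6 library 2, DKO CCR6 library 2 or WT DN library 2. No share over all genes is given beside that lower count. The averaged test takes all libraries of a genotype as independent. Whether libraries of different populations came from the same mouse is not in the labels. If they did, the SE and p of every averaged value here and below may be too small.

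The only members that edgeR called between genotypes within a single population were the complex I subunit Ndufa1 and the complex I assembly factor Ndufaf4, both in CCR6. Ndufa1 (chrX:37187588-37191163, minus strand), a small accessory subunit of the membrane arm, was higher in DKO CCR6 cells. Its level in WT CCR6 libraries was 94.4, 83.9 and 72.3 CPM, and in DKO CCR6 libraries 168, 150 and 137 CPM. The DKO libraries all lay above the WT libraries. The log2 fold change was 0.86 (SE 0.14, edgeR adjusted p = 0.00039). In the other populations the Ndufa1 values stayed closer together. WT ILC1 libraries had 138, 119 and 94.7 CPM and DKO ILC1 libraries 128, 108 and 101 CPM, which overlapped. WT NKp46 libraries had 93.8, 93.4 and 89.6 CPM and DKO NKp46 libraries 115, 105 and 111 CPM, which did not overlap, and WT DN libraries had 126, 111 and 99.5 CPM and DKO DN libraries 125, 123 and 114 CPM, which did. Averaged over the 4 populations Ndufa1 rose by 0.29 (SE 0.07, edgeR adjusted p = 0.0069). The test of whether its genotype difference varied among the 4 populations gave an edgeR adjusted p of 0.051, just outside the threshold, while the alternatives ranged from 0.0020 with DESeq2 to 0.18 with edgeR without the filter on low counts.

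Ndufaf4 (chr4:24898083-24905001, plus strand), an assembly factor that helps to build complex I and is not part of the finished enzyme, was higher in DKO cells of 3 populations without overlap. In CCR6 the WT libraries had 23.5, 24.8 and 20.2 CPM and the DKO libraries 41.0, 42.1 and 41.6 CPM. In DN the WT libraries had 20.6, 24.4 and 27.4 CPM and the DKO libraries 43.7, 37.8 and 43.8 CPM. In NKp46 the values were 27.6, 33.3 and 32.2 CPM in WT and 38.5, 45.6 and 42.1 CPM in DKO. Only in ILC1 did the libraries overlap, at 30.0, 14.4 and 32.8 CPM in WT and 28.0, 40.8 and 38.3 CPM in DKO. The log2 fold change was 0.86 (SE 0.22, edgeR adjusted p = 0.024) in CCR6 and 0.79 (SE 0.22, edgeR adjusted p = 0.056) in DN. The call in CCR6 was lost without any 1 of its 6 libraries, with edgeR adjusted p between 0.065 and 0.15. Averaged over the populations Ndufaf4 rose by 0.64 (SE 0.11, edgeR adjusted p = 0.00029), and this held without any single library. None of the other 7 Ndufaf genes was called in any genotype comparison.

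Ndufs4 (chr13:114287795-114388258, minus strand), an accessory subunit near the NADH-binding module whose loss is known to impair complex I, was the 1 member that fell. WT DN libraries had 108, 105 and 101 CPM against 79.9, 77.5 and 83.9 CPM in DKO DN libraries, and WT NKp46 libraries had 96.0, 87.7 and 91.6 CPM against 87.7, 80.6 and 70.9 CPM in DKO. In ILC1 the WT libraries had 120, 97.6 and 98.1 CPM and the DKO libraries 106, 76.5 and 71.4 CPM, and in CCR6 86.7, 91.2 and 79.9 CPM in WT and 86.5, 78.9 and 65.8 CPM in DKO. The DKO mean was lower in all 4 populations, with no overlap in DN, a near tie in NKp46, and overlap in ILC1 and CCR6. The averaged log2 fold change was -0.26 (SE 0.07, edgeR adjusted p = 0.015), and without the filter on low counts the adjusted p was 0.15. Among the 37 nuclear subunits of complex I, 21 were above 0 in the averaged comparison, with a median of 0.04.

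Several further complex I members had small unadjusted p without passing the test. In NKp46 Ndufa6 had a log2 fold change of 0.49 (SE 0.14, edgeR adjusted p = 0.053) and Ndufs3 one of -0.49 (SE 0.17, edgeR adjusted p = 0.13). Near-identical matches to 2 other annotated genes cover 84.1% of the Ndufs3 transcript, so its level is uncertain. In DN the values were 0.56 (SE 0.20) for Ndufs1, 0.51 (SE 0.18) for the assembly factor Ndufaf7, and -0.32 and -0.36 for Ndufb1-ps and Ndufb3, with a smallest edgeR adjusted p of 0.18. In ILC1 Ndufa2 had -0.54 (SE 0.17, edgeR adjusted p = 0.16), which moved to -0.30 without WT ILC1 library 2.

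The sequences upstream of the 4 nuclear genes with the clearest averaged differences are shown because nuclear respiratory genes are known targets of the factors NRF1, YY1 and the ETS factor GABPA, and because REV-ERB proteins are known to bind the core sequence AGGTCA. Each is the RefSeq window on GRCm38.p6, from 250 bases before to 50 bases after the annotated start, written 5′ to 3′ on the gene's strand with matches in capitals. The windows are chr4:24897833-24898132 (plus) for Ndufaf4, chr9:108936398-108936697 (plus) for Uqcrc1, chrX:37191189-37191488 (minus) for Ndufa1 and chr13:114388045-114388344 (minus) for Ndufs4.
Ndufaf4: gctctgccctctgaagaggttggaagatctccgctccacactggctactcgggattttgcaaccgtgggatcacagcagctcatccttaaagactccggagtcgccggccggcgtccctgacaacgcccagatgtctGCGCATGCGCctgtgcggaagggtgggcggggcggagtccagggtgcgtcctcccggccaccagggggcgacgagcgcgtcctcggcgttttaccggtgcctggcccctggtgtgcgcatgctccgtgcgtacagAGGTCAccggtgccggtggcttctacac
Uqcrc1: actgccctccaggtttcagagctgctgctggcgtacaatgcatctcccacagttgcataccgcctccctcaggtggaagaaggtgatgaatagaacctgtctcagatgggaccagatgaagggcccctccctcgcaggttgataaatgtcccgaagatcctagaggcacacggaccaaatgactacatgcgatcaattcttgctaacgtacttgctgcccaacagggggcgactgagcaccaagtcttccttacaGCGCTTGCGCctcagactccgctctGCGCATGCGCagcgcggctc
Ndufa1: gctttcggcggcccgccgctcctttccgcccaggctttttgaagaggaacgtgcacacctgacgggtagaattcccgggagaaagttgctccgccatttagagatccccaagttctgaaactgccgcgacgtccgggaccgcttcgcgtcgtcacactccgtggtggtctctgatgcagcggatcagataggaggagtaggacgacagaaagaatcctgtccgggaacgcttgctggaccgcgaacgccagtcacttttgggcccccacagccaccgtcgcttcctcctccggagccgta
Ndufs4: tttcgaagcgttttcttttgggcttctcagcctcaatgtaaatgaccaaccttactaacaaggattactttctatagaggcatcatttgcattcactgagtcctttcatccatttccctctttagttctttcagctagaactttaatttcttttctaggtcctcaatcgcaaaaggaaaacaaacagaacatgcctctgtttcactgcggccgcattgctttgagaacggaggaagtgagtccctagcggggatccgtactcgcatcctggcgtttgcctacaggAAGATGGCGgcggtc
The capitals mark 1 match to the NRF1 motif (GCGC and TGCGC with any base between them) and 1 AGGTCA in Ndufaf4, 2 matches to the NRF1 motif in Uqcrc1, none of the searched motifs in Ndufa1, and the YY1 motif AAGATGGCG in Ndufs4. The search used both strands, and the AGGTCA pattern also lies within the longer TAGGTCA and TCAAGGTCA patterns. RefSeq windows matched 76 of the 97 nuclear members. The NRF1 motif was in 25% of the 76 member windows and in 6.68% of 16802 windows of protein-coding genes, the ETS motif CCGGAAG in 25% and 12.1%, and the YY1 motif in 10.5% and 2.01%. AGGTCA was in 22.4% of member windows and 14.3% of all windows, TAGGTCA in 3.95% and 2.3%, and the motif TCAAGGTCA, bound by the ERR receptors that drive mitochondrial genes, in 2.63% and 0.345%. The clock motifs CACGTG and TTATGTAA were in 7.89% and 1.32% of member windows, against 7.95% and 0.905%, and the box CCAAT in 44.7%, against 38.8%. A match describes the letters in a window and not a bound site.

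**Figure D2:**
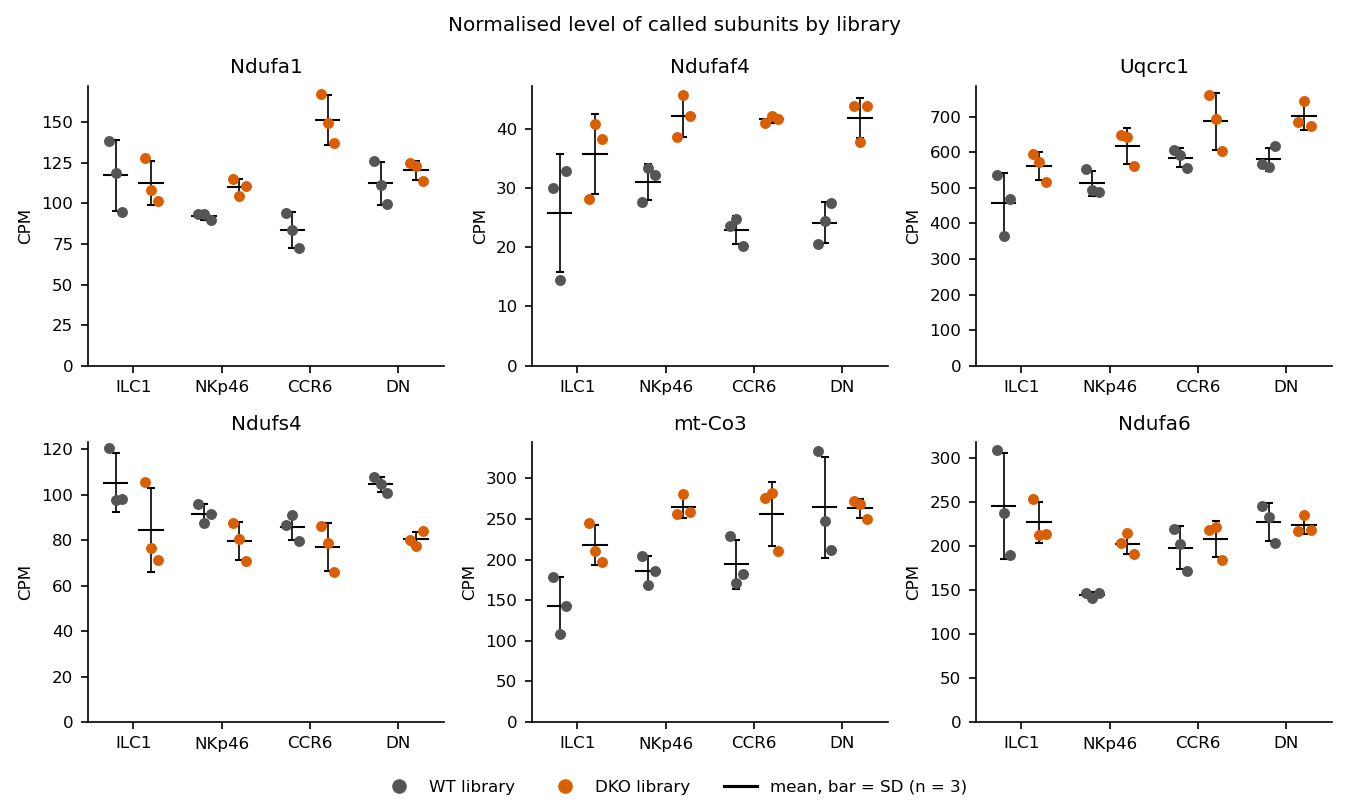
Normalised level in CPM (y axis, from 0) of Ndufa1, Ndufaf4, Uqcrc1, Ndufs4, mt-Co3 and Ndufa6 in each population (x axis). Points are single libraries coloured by genotype, and lines and bars are the mean and SD of 3 libraries; the Ndufa1 values of DKO CCR6, 137 to 168 CPM, lie apart from the WT CCR6 values of 72.3 to 94.4 CPM.

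Complex II is the succinate dehydrogenase, shared with the citric acid cycle, and none of its 4 members was called in any genotype or population comparison. Its flavoprotein subunit Sdha had 437, 163 and 446 CPM in WT ILC1, the low value being that of library 2, and 419, 396 and 376 CPM in DKO ILC1. The other 6 groups had Sdha between 433 and 619 CPM. Sdhd, a membrane anchor, had the largest averaged difference in complex II, 0.25 (SE 0.09, edgeR adjusted p = 0.072), and its WT ILC1 library 2 was also low, at 83.7 CPM against 165 and 141 CPM in the other WT ILC1 libraries. The averaged log2 fold changes of the iron-sulfur subunit Sdhb and the anchor Sdhc were 0.12 (SE 0.07) and 0.07 (SE 0.06). Summed over the 4 genes, complex II ran from 507 to 957 CPM in WT ILC1, with library 2 lowest, and from 871 to 1212 CPM in the other 7 groups.

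In complex III 1 of 9 nuclear members was called in the averaged comparison. All 9 were above 0 there, with a median of 0.14 against -0.02 over all genes, but not in each population. In ILC1 Uqcr11, Uqcrq, Uqcr10 and Uqcrh were below 0, in CCR6 Cyc1 and Uqcrc2, and in DN Uqcrq and Uqcrh. The called member was Uqcrc1 (chr9:108936633-108949623, plus strand), a core subunit on the matrix side. Its level was 535, 366 and 470 CPM in WT ILC1 and 595, 574 and 517 CPM in DKO ILC1, and 554, 494 and 489 CPM in WT NKp46 and 648, 644 and 560 CPM in DKO NKp46. In CCR6 it was 607, 591 and 554 CPM in WT and 762, 695 and 604 CPM in DKO, and in DN 566, 558 and 616 CPM in WT and 684, 744 and 675 CPM in DKO. NKp46 and DN showed no overlap, while 1 DKO library reached into the WT range in each of ILC1 and CCR6. The averaged log2 fold change of Uqcrc1 was 0.27 (SE 0.06, edgeR adjusted p = 0.0039), and it held without any single library. The heme-carrying subunit Cyc1 had 0.14 (SE 0.06, edgeR adjusted p = 0.19) and Uqcr10 0.18 (SE 0.07, edgeR adjusted p = 0.10). The summed level of the 9 nuclear members in DN was 1872, 1801 and 1726 CPM in WT and 2060, 2119 and 1879 CPM in DKO, and in NKp46 1707, 1576 and 1648 CPM in WT and 1918, 1983 and 1727 CPM in DKO. These populations showed no overlap, by a narrow margin in each, and ILC1 and CCR6 libraries overlapped.

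Complex IV has paired isoforms, in which a form known from muscle, lung or testis replaces the common one. The common forms made up nearly all of each pair. Per kilobase, the minor form reached at most 0.402% of the pair for Cox4i2, 0.71% for Cox6a2, 0.421% for Cox6b2, 0.464% for Ndufa4l2 and 10.2% for Cox7a1 in any library. Cox4i2, a form of the COX4 subunit known from lung and low oxygen, had no count in WT ILC1 and 0.359, 0.280 and 0.365 CPM in DKO ILC1. Taking 3 counts over the group as the floor, that is at least 9.32-fold higher in DKO ILC1, on 39 counts. Averaged over the populations Cox4i2 was called higher (edgeR adjusted p = 0.038) at levels that never exceeded 0.787 CPM, and the call was lost without any 1 of 17 of the 24 libraries. In DN its libraries overlapped, at 0.156, 0.662 and 0.619 CPM in WT and 0.286, 0.221 and 0.534 CPM in DKO. Cox6b2, a testis form, had 0.209, 0.247 and 0.205 CPM in WT CCR6 and no count in DKO CCR6, at least 11.9-fold lower, with an edgeR adjusted p of 0.052. The common forms Cox4i1 (489 CPM over all libraries), Cox6a1 (389 CPM), Cox6b1 (188 CPM), Cox7a2 (127 CPM), Cox7b (123 CPM), Cox8a (229 CPM) and Ndufa4 (193 CPM) were not called in any genotype comparison.

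Complex V, the ATP synthase, had no called member in any genotype comparison. The catalytic-core subunit Atp5a1 had 890, 884 and 865 CPM in WT NKp46 and 848, 781 and 697 CPM in DKO NKp46, a separation without overlap that did not pass the test (edgeR adjusted p = 0.50). In DN the order was the other way, with 763, 819 and 805 CPM in WT and 985, 986 and 879 CPM in DKO (edgeR adjusted p = 0.39). The subunit c genes, which encode the rotating ring, had means of 116 CPM for Atp5g1, 125 CPM for Atp5g2 and 210 CPM for Atp5g3. Atp5g1 had the largest averaged difference of the 3, 0.17 (SE 0.07, edgeR adjusted p = 0.13). Atp5mpl, a small associated protein, had -0.21 (SE 0.08, edgeR adjusted p = 0.095). Of 17 tested nuclear complex V members 14 were above 0 in the averaged comparison, with a median of 0.04.

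**Figure D3:**
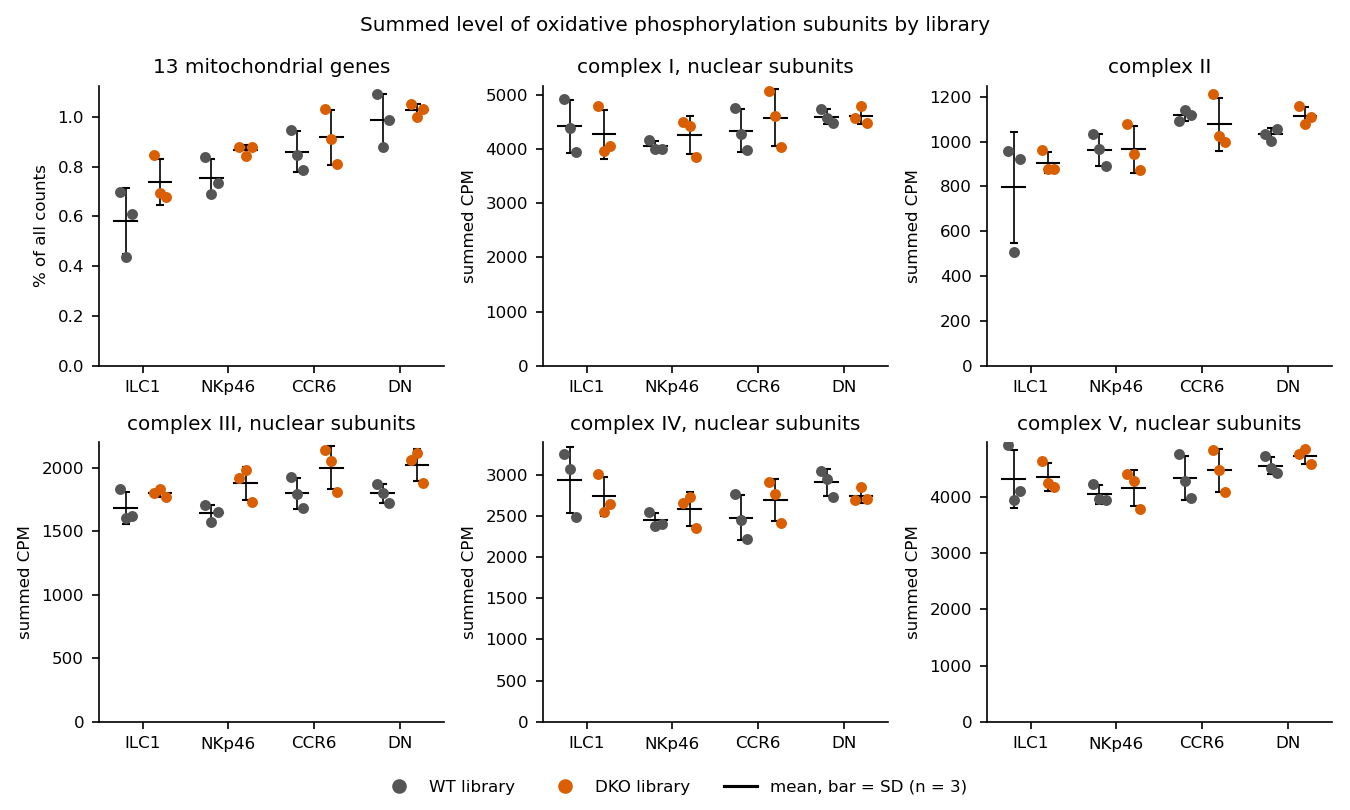
Percent of all counts in the 13 mitochondrial genes, and summed CPM of the nuclear members of complexes I to V (y axes, from 0), by population (x axis). Points are single libraries coloured by genotype, and lines and bars are the mean and SD of 3 libraries; the WT and DKO ranges lie close together in most panels, and WT ILC1 library 2 is the lowest point for the mitochondrial genes (0.438%) and for complex II (507 CPM).

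The 13 mitochondrial genes encode catalytic and proton-pumping subunits of complexes I, III, IV and V and are transcribed inside the organelle. Their share of all counts was 0.697%, 0.438% and 0.610% in WT ILC1 and 0.846%, 0.694% and 0.677% in DKO ILC1. It was 0.840%, 0.688% and 0.735% in WT NKp46 and 0.878%, 0.844% and 0.877% in DKO NKp46, apart only by the margin between 0.840% and 0.844%. On the CPM scale the 13 genes overlapped in NKp46, at 8573, 6914 and 7009 CPM in WT and 9037, 8332 and 8176 CPM in DKO. The mean share in WT ILC1 was 0.582%, and 0.654% without library 2. In CCR6 it was 0.947%, 0.847% and 0.785% in WT and 1.03%, 0.912% and 0.811% in DKO, and in DN 1.09%, 0.879% and 0.987% in WT and 1.05%, 1.00% and 1.03% in DKO, both overlapping. In the averaged comparison 12 of the 13 genes were above 0, with a median of 0.17, and 4 were called higher. Without WT ILC1 library 2 the median was 0.11 averaged, with 4 still called, and in ILC1 it moved from 0.28 to 0.10.

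Before those values are given, 7 of the 13 genes need a caution, because chromosome 1 carries near-identical nuclear copies of them that the annotation lists as pseudogenes, and reads cannot always be told apart. The first 90 bases of mt-Co3 and mt-Nd3 and of their copies, and a stretch of mt-Co1, are printed to show how close they are. Capitals mark the bases that differ between a gene and its copy. The mitochondrial stretches are chrM:8607-8696 (mt-Co3), chrM:9459-9548 (mt-Nd3) and chrM:6390-6479 (mt-Co1), all on the plus strand of GRCm38. The copies are chr1:24613882-24613971 (Gm28437), chr1:24613030-24613119 (Gm28438) and chr1:24616099-24616188 (Gm29216), all on the minus strand.
mt-Co3: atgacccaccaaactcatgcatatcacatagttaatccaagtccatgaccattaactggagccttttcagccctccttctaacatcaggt
Gm28437: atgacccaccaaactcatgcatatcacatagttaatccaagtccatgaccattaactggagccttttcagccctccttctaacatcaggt
mt-Nd3: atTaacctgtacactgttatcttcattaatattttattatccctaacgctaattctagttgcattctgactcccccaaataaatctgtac
Gm28438: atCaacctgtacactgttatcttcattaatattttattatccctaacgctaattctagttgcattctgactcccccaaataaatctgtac
mt-Co1: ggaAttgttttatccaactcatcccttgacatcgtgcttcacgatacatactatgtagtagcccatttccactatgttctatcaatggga
Gm29216: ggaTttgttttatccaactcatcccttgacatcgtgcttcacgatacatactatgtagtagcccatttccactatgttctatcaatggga
Over the full alignments mt-Co3 and Gm28437 were identical for 783 bases, mt-Co2 and Gm28661 for 681 and mt-Atp6 and Gm10925 for 678. mt-Nd3 and Gm28438 differed at 1 of 345 bases, and mt-Co1 and Gm29216 at 1 of 483, about 31.3% of mt-Co1. mt-Nd4 and mt-Nd4l had identical copies over 876 and 294 bases. The counts were divided between gene and copy, with means of 224 CPM for mt-Co3 and 222 CPM for Gm28437, 98.6 CPM for mt-Co2 and 119 CPM for Gm28661, 156 CPM for mt-Atp6 and 165 CPM for Gm10925, and 33.5 CPM for mt-Nd3 and 6.36 CPM for Gm28438. Levels of these genes are therefore uncertain. The other 6 (mt-Nd1, mt-Nd2, mt-Nd5, mt-Nd6, mt-Cytb and mt-Atp8) had no such copy among annotated transcripts, and sequence outside annotated transcripts was not searched. mt-Atp8 lies between mt-Co2 and mt-Atp6, which both have a copy, and shares 43 bases with mt-Atp6, so its level is uncertain too.

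Of the called mitochondrial genes, mt-Nd1, a core subunit of the complex I membrane arm, has no such copy among annotated transcripts. It had 1221, 727 and 933 CPM in WT ILC1 and 1391, 1136 and 1107 CPM in DKO ILC1, and 1388, 1140 and 1155 CPM in WT NKp46 and 1377, 1399 and 1326 CPM in DKO NKp46. In CCR6 it had 1609, 1464 and 1267 CPM in WT and 2020, 1692 and 1504 CPM in DKO, and in DN 1827, 1472 and 1519 CPM in WT and 1905, 1804 and 1851 CPM in DKO. WT and DKO libraries overlapped in all 4 populations, and the DKO mean was higher in each. The averaged log2 fold change of mt-Nd1 was 0.24 (SE 0.08, edgeR adjusted p = 0.046), lost without any 1 of 16 of the 24 libraries and, with mitochondrial genes left out of the scaling, at 0.0502.

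mt-Co3, a complex IV core subunit, had 179, 108 and 142 CPM in WT ILC1 and 245, 211 and 197 CPM in DKO ILC1, and 204, 168 and 186 CPM in WT NKp46 and 255, 281 and 258 CPM in DKO NKp46. In CCR6 it had 229, 171 and 182 CPM in WT and 276, 282 and 210 CPM in DKO, and in DN 333, 248 and 211 CPM in WT and 272, 268 and 249 CPM in DKO. ILC1 and NKp46 libraries did not overlap, and CCR6 and DN libraries did. The averaged log2 fold change of mt-Co3 was 0.38 (SE 0.09, edgeR adjusted p = 0.0052), and that of its copy Gm28437 was 0.37 (SE 0.09, edgeR adjusted p = 0.0049). mt-Co2, another complex IV core subunit, rose by 0.27 (SE 0.08, edgeR adjusted p = 0.030), beside 0.22 (SE 0.08, edgeR adjusted p = 0.064) for its copy Gm28661. mt-Nd3 rose by 0.45 (SE 0.14, edgeR adjusted p = 0.046), beside 0.19 (SE 0.15, edgeR adjusted p = 0.51) for Gm28438. The mt-Co2 call was lost without any 1 of 7 libraries and the mt-Nd3 call without any 1 of 18, while mt-Co3 held throughout.

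The other 9 mitochondrial genes were not called between genotypes. mt-Cytb, the only mitochondrial subunit of complex III, had an averaged log2 fold change of 0.18 (SE 0.10) and mt-Co1, the catalytic subunit of complex IV, 0.16 (SE 0.09). For mt-Nd2, mt-Nd4, mt-Nd5 and mt-Nd6 the values were 0.08, 0.05, 0.09 and 0.05, for mt-Nd4l -0.02, and for mt-Atp6 and mt-Atp8, subunits of the ATP synthase whose genes overlap by 43 bases, 0.17 and 0.24. mt-Nd6 lies on the other strand from the rest and shares 14 bases with mt-Nd5.

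Of the 2 ribosomal RNAs of the mitochondrial genome, which are not members, mt-Rnr1 was lower in DKO and mt-Rnr2 was not called between genotypes. mt-Rnr1, the small-subunit ribosomal RNA, had 1891, 2921 and 1367 CPM in WT ILC1 and 820, 598 and 663 CPM in DKO ILC1, and 757, 839 and 826 CPM in WT NKp46 and 388, 367 and 338 CPM in DKO NKp46. In DN it had 911, 822 and 655 CPM in WT and 385, 350 and 313 CPM in DKO, and in CCR6 492, 376 and 304 CPM in WT and 310, 324 and 385 CPM in DKO. DKO libraries lay below WT libraries without overlap in ILC1, NKp46 and DN and overlapped them in CCR6. The mt-Rnr1 log2 fold changes were -1.57 (SE 0.21, edgeR adjusted p = 0.00013), -1.15 (SE 0.21, edgeR adjusted p = 0.0017) and -1.19 (SE 0.21, edgeR adjusted p = 0.0013) in those 3 populations and -0.20 (SE 0.21, edgeR adjusted p = 0.83) in CCR6. The test of whether the difference varied among the populations gave an edgeR adjusted p of 0.062. Averaged over all 4, mt-Rnr1 fell by 1.03 (SE 0.10, edgeR adjusted p = 2.5e-07) on the log2 scale. mt-Rnr2, the large-subunit ribosomal RNA, had log2 fold changes of -0.67, 0.01, 0.07 and -0.29 for ILC1, NKp46, CCR6 and DN and an averaged value of -0.22 (SE 0.12, edgeR adjusted p = 0.29). Its WT ILC1 library 2, at 14604 CPM, was far above the other 2 WT ILC1 libraries at 6324 and 5336 CPM. Without that library mt-Rnr2 had -0.08 (SE 0.14) in ILC1 and -0.07 (SE 0.06, edgeR adjusted p = 0.56) averaged. The averaged mt-Rnr1 call held without any single library. WT ILC1 library 2, with 9.39% of counts in ribosomal RNA genes, also had the highest mt-Rnr1 level of all libraries, 2921 CPM. The search for copies covered the members only, so nuclear copies of these 2 RNAs were not looked for. Whether their counts follow the amount of ribosomal RNA in the cells was not tested.

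**Figure D4:**
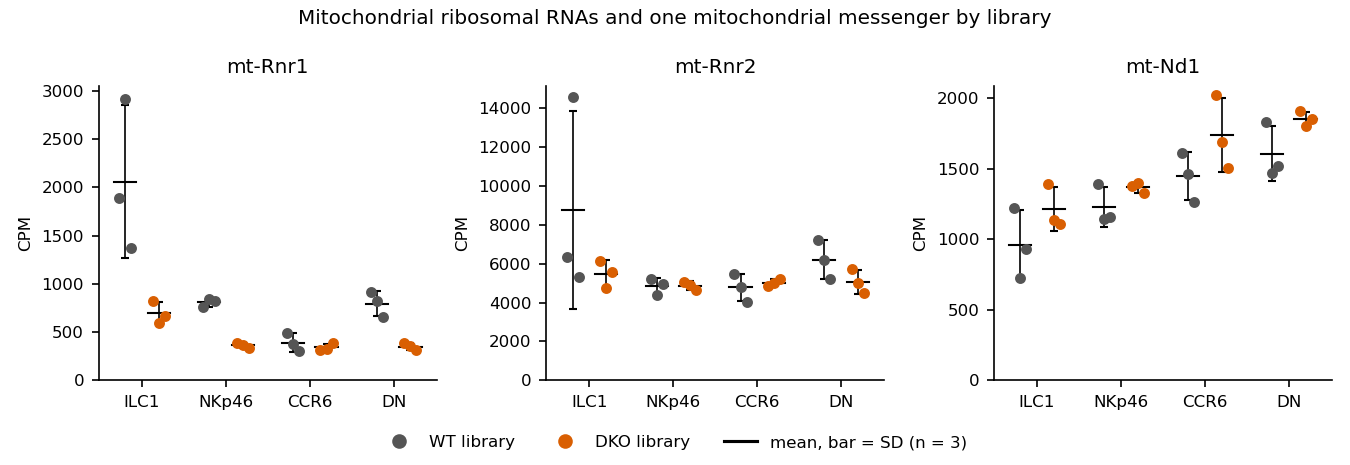
Normalised level in CPM (y axis, from 0) of the mitochondrial ribosomal RNAs mt-Rnr1 and mt-Rnr2 and of the messenger mt-Nd1 by population (x axis). Points are single libraries coloured by genotype, and lines and bars are the mean and SD of 3 libraries; for mt-Rnr1 the DKO points lie below the WT points in ILC1, NKp46 and DN, while mt-Nd1 overlaps in all 4 populations.

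Among the 4 WT populations members were called at a share near that of all genes. A joint test of any difference called 25 of 105 members, or 23.8%, where 19.1% of all genes were called. The calls are therefore listed as single genes and not read as a property of the members. They were 6 of 37 nuclear complex I subunits, 1 assembly factor, 2 of 9 in complex III, 7 of 17 in complex IV and 4 of 17 in complex V among tested nuclear members, and 5 of the 13 mitochondrial genes (mt-Nd1, mt-Nd2, mt-Cytb, mt-Co1 and mt-Co3). Among the complex IV members, Cox6a2 passed the filter on low counts only through the ILC1 libraries. The count of the joint test was 14 without WT CCR6 library 2 and 16 without DKO DN library 2, with no share over all genes given beside these counts. In WT means all 13 mitochondrial genes were highest in DN, and 11 of 13 were lowest in ILC1. Without WT ILC1 library 2 all 13 remained highest in DN, while 10 were lowest in ILC1, 2 in NKp46 and 1 in CCR6. The nuclear members had no such common order. Of the 92 tested, 39 were highest in ILC1, 27 in DN, 20 in CCR6 and 6 in NKp46, and 35 were lowest in NKp46 and 30 in ILC1. mt-Cytb shows the mitochondrial order, with 1727, 796 and 1472 CPM in WT ILC1, 1928, 1612 and 1578 CPM in WT NKp46, 2349, 2181 and 1906 CPM in WT CCR6 and 2598, 2077 and 2334 CPM in WT DN. Each population overlapped its neighbour in that order, while all DN libraries lay above all ILC1 and NKp46 libraries.

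WT NKp46 was the common reference of the 3 population comparisons, the first of which was with WT ILC1. Several small nuclear subunits were higher in ILC1. The test called 14 members, 13 higher and 1 lower in ILC1, or 13.3% of 105, where 10.7% of all genes were called, 5.13% higher and 5.6% lower. Without regard to the test, 19 members had all WT ILC1 libraries above all WT NKp46 libraries and 7 had them below, against 9.48% and 12.5% of all genes. The called members were 4 of complex I, 1 of complex III, 6 of complex IV and 3 of complex V, and no mitochondrial gene. Ndufa6 (chr15:82350140-82354322, minus strand), an accessory subunit of complex I, had 310, 238 and 190 CPM in WT ILC1 and 147, 141 and 146 CPM in WT NKp46. The libraries did not overlap, and the log2 fold change was 0.77 (edgeR adjusted p = 0.00091). Cox8a, a small complex IV subunit, had 332, 373 and 258 CPM in WT ILC1 and 201, 194 and 202 CPM in WT NKp46, again without overlap (log2 fold change 0.69, edgeR adjusted p = 0.0011).

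Of the remaining higher members, Ndufa2, Ndufb1-ps and Ndufa11 of complex I rose by 0.70, 0.57 and 0.57 on the log2 scale in ILC1, and Uqcrh, the hinge protein of complex III, by 0.35. In complex V Atp5e, the epsilon subunit of the catalytic head, rose by 0.71, and the small membrane subunits Atp5k and Atp5md by 0.66 and 0.63. In complex IV Cox7a2l, also known as a factor that joins complexes III and IV, rose by 0.41, Cox4i1 by 0.41 and Cox7a2 by 0.39. The largest edgeR adjusted p of these was 0.036. The muscle forms of complex IV went in opposite directions. Cox6a2 had 0.645, 1.77 and 1.07 CPM in WT ILC1 and no count in WT NKp46, at least 37.9-fold higher on 84 counts. DKO ILC1 libraries also had it, at 0.449, 2.49 and 0.625 CPM, and outside ILC1 it reached at most 0.0981 CPM. Cox6a2 thus passed the filter on low counts only through the ILC1 libraries, and its calls here and in the joint test are not independent of that. Cox6a2 shares 70 exon bases with Itgad on the other strand, and the deposited counts do not state strand. Cox7a1 had 0.290, 0 and 1.27 CPM in WT ILC1 and 3.64, 3.49 and 3.79 CPM in WT NKp46, a log2 fold change of -2.70 (edgeR adjusted p = 0.014), and it lost its call without WT ILC1 library 1.

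The WT ILC1 comparison depended on single libraries. The count was 6 without WT ILC1 library 2, when 2042 of all 22740 genes then tested were called. It was 25 without WT ILC1 library 3, 9, 4 and 8 without WT NKp46 library 1, 2 and 3, and 9 without DKO DN library 3. For these other leave-outs no share over all genes is given. Fitted on these 6 libraries alone it was 1. Ndufa6 and Cox8a were called in all 24 such leave-outs. Without WT ILC1 library 2 the Ndufa2 and Atp5e calls were among those lost. Several of the called genes share sequence with other annotated genes. Partial copies matched 17.8% of the Cox7a2l transcript and 12.0% of Atp5md. Matches also covered 20.1% of Cox4i1, 17.2% of Ndufb1-ps and 11.5% of Ndufa2. Those 3 genes share 154, 147 and 66 exon bases with Emc8, Cpsf2 and Tmco6 on the other strand of the same locus. The marker list of myeloid cells summed to between 280 and 752 CPM in WT ILC1 and between 118 and 158 CPM in WT NKp46, with no marker at 0 in either group, and that of T cells to between 1262 and 1682 CPM and between 722 and 818 CPM. B and plasma cell markers were between 580 and 786 CPM in WT ILC1 and between 209 and 366 CPM in WT NKp46. Stromal and endothelial markers were between 156 and 268 CPM against between 126 and 144 CPM, and epithelial markers between 73.5 and 75.8 CPM against between 11.6 and 28.7 CPM, with Krt20, Fabp1 and Apoa1 at 0 in WT ILC1. Their part in these differences was not tested. The median over the 13 mitochondrial genes was -0.31, with 2 of 13 above 0, beside 0.10 over the nuclear members and -0.02 over all genes. Without WT ILC1 library 2 the mitochondrial median was -0.08, with 3 of 13 above 0, beside 0.14 over the nuclear members and -0.03 over all genes.

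WT DN against WT NKp46 showed a wide but small shift. Of the 105 members, 94 had a log2 fold change above 0, with a median of 0.22 against -0.01 over all genes. In 53 members, or 50.5%, all 3 DN libraries lay above all 3 NKp46 libraries, where this held for 12.7% of all genes, and the reverse held for 4 members and for 10.2% of all genes. Only 1 member passed the test, where 2.97% of all genes were called. An unadjusted p below 0.05 was reached by 25 members, and the share of all genes at that cut is not given. The called member was Ndufa6, with 246, 233 and 203 CPM in WT DN and 147, 141 and 146 CPM in WT NKp46, a log2 fold change of 0.65 (SE 0.14, edgeR adjusted p = 0.0094), which was lost without WT NKp46 library 2 or WT DN library 1. The 53 members were 19 nuclear subunits and 4 mitochondrial genes of complex I, 1 assembly factor, 2 of complex II, 5 nuclear members and mt-Cytb of complex III, 8 nuclear members and 1 mitochondrial gene of complex IV, and 11 nuclear members and 1 mitochondrial gene of complex V. All 13 mitochondrial genes were above 0, with a median of 0.41, and 8 had an unadjusted p below 0.05. After Ndufa6, the members with the smallest p were Cox7a2l at 0.40 and Cox4i1 at 0.36, with edgeR adjusted p of 0.071 and 0.13. T cell markers summed to between 3166 and 3335 CPM in WT DN and between 722 and 818 CPM in WT NKp46, with none at 0 in either. Myeloid markers summed to between 49.7 and 84.2 CPM in WT DN and between 118 and 158 CPM in WT NKp46. Stromal and endothelial markers summed to between 160 and 185 CPM against between 126 and 144 CPM, with Pdgfra at 0 in both. The part of these lists in the shift was not tested.

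Annotated exon length moved with this shift. It is the union of all annotated exons of a gene, which can exceed the length of any single transcript. Split at the median exon length of 1550 bases over the 97 members above 10 CPM, the 49 shorter members had a median log2 ratio of 0.26 and the 48 longer ones 0.18, and Spearman's rho with length was -0.32 across genes. Over 7973 protein-coding genes rho was -0.19, with medians of 0.15 for the shorter and -0.06 for the longer genes. In WT ILC1 against WT NKp46 rho was -0.18 over the members, and -0.11 without WT ILC1 library 2. Genes are not independent replicates, and no p is given for these values.

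WT CCR6 against WT NKp46 called no member, where 6.23% of all genes were called, and 6 members had an unadjusted p below 0.05. DESeq2 called 3. All WT CCR6 libraries lay above all WT NKp46 libraries for 17 members and below them for 4, against 14.8% and 13.5% of all genes. The nearest were Ndufa6 at 0.46 (SE 0.14) and Cyc1 at 0.40 (SE 0.13), with edgeR adjusted p of 0.060 and 0.064, and on the lower side the assembly factors Ndufaf6 and Ndufaf4 at -1.73 (SE 0.68) and -0.44 (SE 0.22). The WT CCR6 Ndufa6 libraries, at 220, 203 and 172 CPM, all lay above those of WT NKp46. So Ndufa6 was lower in WT NKp46 libraries than in each library of the other 3 WT populations, and in DKO NKp46 it had 204, 214 and 191 CPM. Myeloid markers summed to between 43.1 and 64.1 CPM in WT CCR6 and between 118 and 158 CPM in WT NKp46. Stromal and endothelial markers summed to between 217 and 260 CPM against between 126 and 144 CPM. Innate lymphoid markers summed to between 9613 and 10473 CPM against between 7655 and 8470 CPM. The part of these lists in the CCR6 values was not tested.

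**Figure D5:**
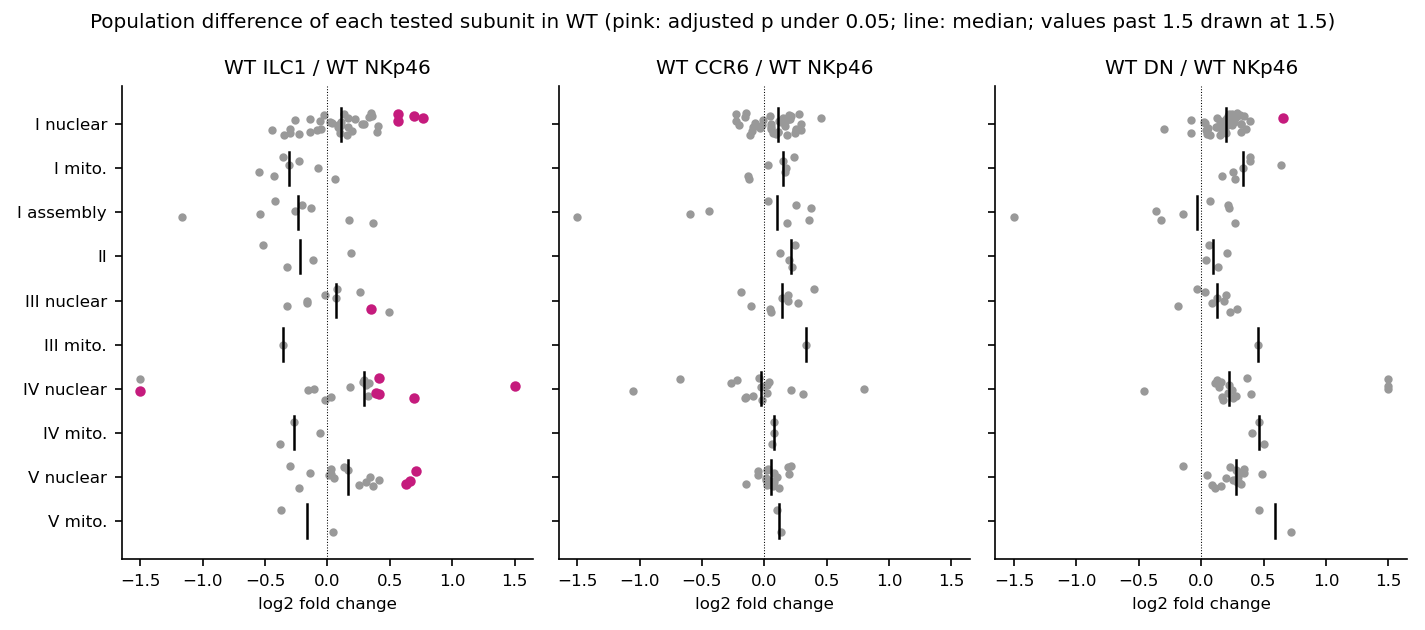
Log2 fold change of WT ILC1, WT CCR6 and WT DN against WT NKp46 for each of the 105 tested members (x axis), grouped on the y axis by complex and genome. Each point is 1 gene, pink where edgeR's adjusted p is below 0.05, the black line is the median of the group, and values past 1.5 are drawn at 1.5; the mitochondrial groups lie mostly left of 0 in ILC1 and right of 0 in DN.

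A test of whether the genotype difference varied among the 4 populations called no member, where 1.37% of all genes were called, and 8 members had an unadjusted p below 0.05. DESeq2 called 2. Differences between populations in the genotype values above are therefore values side by side. Comparisons within one population share no library with those of another, while the 3 WT comparisons share the WT NKp46 libraries.

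Genes around the complexes are given by lists, whose counts in the averaged comparison stand beside 10.8% called over all genes, 4.81% higher and 5.99% lower. Whether a list's share differed from that of all genes, or from that of the subunits, was not tested. Of 42 assembly factors outside the naming rule, 40 were tested, none was called in a single population between genotypes, and 3 were called higher in the averaged comparison. Coa7, a complex IV factor, rose by 0.79 (SE 0.19, edgeR adjusted p = 0.0083), Dmac1 of complex I by 0.31 (SE 0.09) and Atpaf2 of the ATP synthase by 0.22 (SE 0.06). Cox10 takes part in the synthesis of the heme of complex IV. In WT it was higher than in NKp46 by 0.79 in CCR6 and 0.63 in DN, with edgeR adjusted p of 0.00012 and 0.0033.

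Among electron carriers the largest change was that of Sqor. Sqor, the sulfide oxidoreductase that feeds electrons to ubiquinone, had 8.76, 8.85 and 6.14 CPM in WT NKp46 and 0.847, 0.860 and 1.73 CPM in DKO NKp46, without overlap. It fell by 2.79 (SE 0.44) in NKp46, 1.78 (SE 0.42) in CCR6 and 1.55 (SE 0.42) in DN on the log2 scale, with edgeR adjusted p of 0.00042, 0.013 and 0.048. The NKp46 call held without any single library, the CCR6 call was lost without WT CCR6 library 3, DKO CCR6 library 2 or DKO CCR6 library 3, and the DN call without any 1 of 18. In the averaged comparison 2 of the 19 genes of this list rose and 1 fell. Cycs, which encodes cytochrome c, the carrier between complexes III and IV, rose by 0.36 (SE 0.08, edgeR adjusted p = 0.0037), and Coq4, needed for ubiquinone synthesis, by 0.64 (SE 0.18, edgeR adjusted p = 0.024).

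In the carrier and uncoupling list 8 of 10 genes were tested. Vdac1, the main pore of the outer membrane, rose by 0.82 in CCR6 and 0.61 in DN, Ucp2, an inner membrane carrier, by 0.77 in CCR6, and Slc25a4, an ATP and ADP exchanger, by 0.82 in ILC1, and all 3 rose in the averaged comparison. The Vdac1 call in DN was lost without any 1 of the 6 DN libraries, and the averaged Slc25a4 call without any 1 of 17 libraries. Of 21 genes of the citric acid cycle and pyruvate dehydrogenase, Suclg1 fell by 0.60 in NKp46 and by 0.30 in the averaged comparison, Sucla2, which encodes the partner subunit for the ATP-forming enzyme, rose by 0.31 in the latter, and Dld rose by 0.54 in DN. Among 26 genes that copy, transcribe and process mitochondrial DNA and RNA, Tfam, the packaging and transcription factor, rose by 0.85 in ILC1 (edgeR adjusted p = 0.035), a call lost without any 1 of 13 libraries, WT ILC1 library 2 among them. Of 77 tested mitochondrial ribosomal proteins 5 rose and 1 fell in the averaged comparison, led by Mrpl52, which fell by 0.45, and Mrpl28, which rose by 0.34. None of 12 tested regulators of mitochondrial biogenesis was called between genotypes. In glycolysis 5 of 15 genes rose in the averaged comparison and none fell. Pfkp and Pfkl, forms of phosphofructokinase, rose by 1.14 and 0.87 (edgeR adjusted p of 7.8e-11 and 8.1e-08), and Pkm and Eno1 by 0.54 and 0.52.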

How the data were processed

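RNA-seq libraries were made per the labels' protocols with a SMARTer Ultra Low Input kit from 10 ng of total RNA with an integrity number above 8 and amplified for 12 to 15 cycles. The kit does not mark strand, and neither the strand setting nor the treatment of reads with several matches is given in the sources used here. The deposited values are raw counts per gene in 1 table, and per the submitters' processing notes reads were on mm10 and the listed tools include STAR 2.7.9a and featureCounts 2.0.3 (Subread), with R 4.1, Salmon 1.5.2, bcl2fastq and DESeq2 also named, in no stated order. Of the 55774 rows, 455 repeated 168 gene identifiers with identical counts and were merged, leaving 55487 genes. Totals of 12763228 to 84395154 counts per library set the precision, which is lowest for rare isoforms.

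Counts were analysed in R 4.3.3 with edgeR 4.0.16, using TMM scaling, its filter on low counts by group, and robust quasi-likelihood fits of 8 group means with 16 residual degrees of freedom, with Benjamini-Hochberg adjustment over 21286 genes. The threshold was an adjusted p of 0.05. The pipeline was tested on simulated data. DESeq2 1.42.0 and limma 3.58.1 (voom), other scalings, no filter, a replicate block, fits on the compared groups alone and leaving out each library were tried as alternatives. Exon lengths and overlaps came from GENCODE M21 on GRCm38. Copies were transcript matches of at least 50 bases at 98% identity, and genes overlapping a member on the other strand counted among them. Floors are 3 counts over a group.

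Named genes were all members of complex II, paired isoforms, the mitochondrial genes, the 3 highest of each complex per kilobase, up to 8 called members each way per comparison (where fewer than 3 were called, the 3 with the smallest p each way as values), and up to 4 called genes per pathway list. The members, lists and tests were chosen with earlier results of these data known. The labels do not say what a replicate number shares, and the fit used no replicate block. No same-numbered pair of libraries of 1 genotype correlated above 0.1 in its deviations from the group means (-0.03 to 0.08 over 36 pairs). Still, 22 of 24 libraries correlated best with one of their own number within a genotype, so a shared structure is possible. Counts with a block are given below.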

Additional observations from a re-analysis of the deposited data

How the results depend on the processing

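No called value reversed its direction under any alternative tried. The count of called members averaged over the populations stayed within 1.5 times of 9 under every alternative except the leave-outs, including 11 with a replicate block. In single populations DESeq2's test gave 2 members in ILC1, 3 in NKp46 and 1 in DN between genotypes, where the edgeR count was 0. DESeq2 size factors gave 1 in DN, and dropping the filter on low counts gave 1 in ILC1 and 1 in DN. limma voom gave 5 in CCR6 and 1 in DN. Fits on the 2 compared groups gave 4 in NKp46 and 5 in DN. For WT ILC1 against WT NKp46, with 14 called, no filter gave 8, voom 8 and the 2 groups alone 1. WT CCR6 against WT NKp46, with 0 called, gave 2 with DESeq2 size factors, 3 with DESeq2's test, 2 with voom and 1 with the 2 groups alone. WT DN against WT NKp46, with 1 called, gave 2 with DESeq2's test and 3 with the 2 groups alone. The joint test among WT populations gave 38 with DESeq2 against 25, and the test of varying genotype differences gave 2 with DESeq2 and 1 with voom against 0. The cause of these shifts was not tested. No share over all genes stands beside the counts of the alternatives, here or in the next paragraph. Whether those counts were near the share of all genes is therefore not shown.

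Whether replicate numbers pair the libraries is not in the labels. No same-numbered pair correlated above 0.1, but 22 of 24 libraries correlated best with one of their own number within a genotype (median r of 0.04, against -0.02 for other numbers), a hint from the data and not the design, and library 1 had the highest mitochondrial share in 8 of 8 groups. With the number as a replicate block the counts were 1 in ILC1 and 2 in NKp46 between genotypes, 2 for WT CCR6, 5 for WT DN, 40 for the joint WT test and 1 for varying genotype differences. With a block by genotype and number they were 22 for WT ILC1, 1 for WT CCR6, 5 for WT DN and 1 for varying genotype differences. Leaving out each library in turn gave genotype counts of 0 to 2 for each of ILC1, NKp46 and DN, 1 to 3 for CCR6, and 5 to 14 averaged. The WT counts ran from 4 to 25 for ILC1, 0 to 2 for CCR6 and 0 to 2 for DN, and from 14 to 28 for the joint test, and varying genotype differences from 0 to 2. Without any 1 of the 6 CCR6 libraries the CCR6 count was 1, and without WT NKp46 library 2 or WT DN library 1 the WT DN count was 0. The summed level of nuclear complex III in DKO ILC1 was 1839 CPM with mitochondrial genes out of the scaling. Counts were low for the tested isoforms Cox4i2, Cox6a2 and Cox6b2, at 278, 225 and 291 over all libraries, and Ndufa4l2, Cox7b2, Cox8c and Cox8b, at 78, 7, 3 and 1, could not be tested.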

Other observations

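Single genes of other mitochondrial lists differed among the WT populations. In WT ILC1 against WT NKp46, where 10.7% of all genes were called, 4 of 8 carriers, 3 of 26 genes of mitochondrial DNA and RNA upkeep, 8 of 77 mitochondrial ribosomal proteins, 7 of 40 assembly factors, 2 of 21 citric acid cycle genes and 0 of 19 electron carriers were called. In WT CCR6 against WT NKp46, where 6.23% were called, 3 of 8 carriers and 3 of 77 ribosomal proteins were. Against WT NKp46, WT ILC1 had lower Ucp2, an inner membrane carrier, by a log2 fold change of -0.87 (edgeR adjusted p = 0.00059), and lower Tfam at -0.86 (edgeR adjusted p = 0.0056), and both calls held without any single library. Mrpl52, a mitochondrial ribosomal protein, was higher in WT ILC1 by 0.88 (edgeR adjusted p = 0.00018). WT CCR6 had lower Ucp2 than WT NKp46, at -1.33 (edgeR adjusted p = 4e-06), and higher Slc25a4, an ATP and ADP exchanger, at 0.85 (edgeR adjusted p = 0.00029). The genotype difference of Slc25a4 varied among the 4 populations (edgeR adjusted p = 0.0078), as did that of Pfkp (edgeR adjusted p = 0.0019).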
